A study of Mus musculus with 12 samples.

Results

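The comparison was between induced MEL cells with knocked-down LDB1 that expressed the LDB1 delta 4/5 construct (delta45, 3 libraries) and knockdown cells without a construct (KD, 3 libraries), taken by their titles from 12 libraries in all. MEL is a mouse erythroleukemia line that can be induced to mature toward red cells in culture. The delta45 cells carried the knockdown as well as the construct, and all groups were induced. The knockdown cells with full-length LDB1 (FL) and the unmodified induced cells (control), also 3 libraries each, are given beside the results for their levels. The labels do not give the agent of induction or its duration, the means of knockdown, the promoter of the constructs or whether a line was 1 clone. It is not stated whether replicate libraries were grown as separate cultures. The p-values therefore measure variation among these libraries, some or all of which may be technical.

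LDB1 is an adaptor that pairs with itself and holds LMO2, TAL1 and GATA1 in an erythroid complex, and it joins distant enhancers to globin promoters. The title of the study concerns the step between such looping and the start of transcription. Erythroid maturation is accompanied by globin and heme synthesis, a rebuilt membrane skeleton and, late, an exit from the cell cycle.

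Gene reads numbered 20464959, 14638726 and 12377929 in the delta45 libraries, against 12889381, 8783970 and 11403491 in the KD libraries. Levels are CPM, reads scaled to a common library size by TMM, given per library or as mean ± SD of 3 libraries. The summed level of a gene list is over all its members found in the files, tested or not. Changes are log2 of delta45 over KD ± SE, estimated with the quasi-likelihood method of edgeR on all 12 libraries together, and genes with an adjusted p (Benjamini-Hochberg) below 0.05 were called. The delta45 libraries were closer to each other than the KD libraries, with Pearson correlations of log2 CPM of 0.992 to 0.993 against 0.953 to 0.974. The cells bore erythroid markers in both groups: Gata1, the transferrin receptor gene Tfrc and the adult globin genes were read in all 6 libraries.

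Of 12837 genes tested, 3747 (29.2%) were higher and 3946 (30.7%) lower in delta45 than in KD, 59.9% in either direction. Most changes were small: 1390 of the higher and 1830 of the lower genes exceeded 2-fold, and 93 and 306 exceeded 8-fold. A test against a 1.5-fold change called 1544 higher (12%) and 1962 lower (15.3%). The median change of all tested genes was -0.01. The 3 delta45 libraries lay wholly above the 3 KD libraries for 4164 genes (32.4%) and wholly below for 3982 (31%). Over the same 12837 genes, 52.8% differed between delta45 and FL and 64.4% between delta45 and control.

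By their medians, sterol synthesis, ribosome assembly and MYC network genes stood highest among the 38 gene lists examined, and interferon effectors and antigen presentation genes stood lowest, with glycolysis and the hypoxia response also far below 0. The globin genes lay between them and did not move together.

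**Figure D1:**
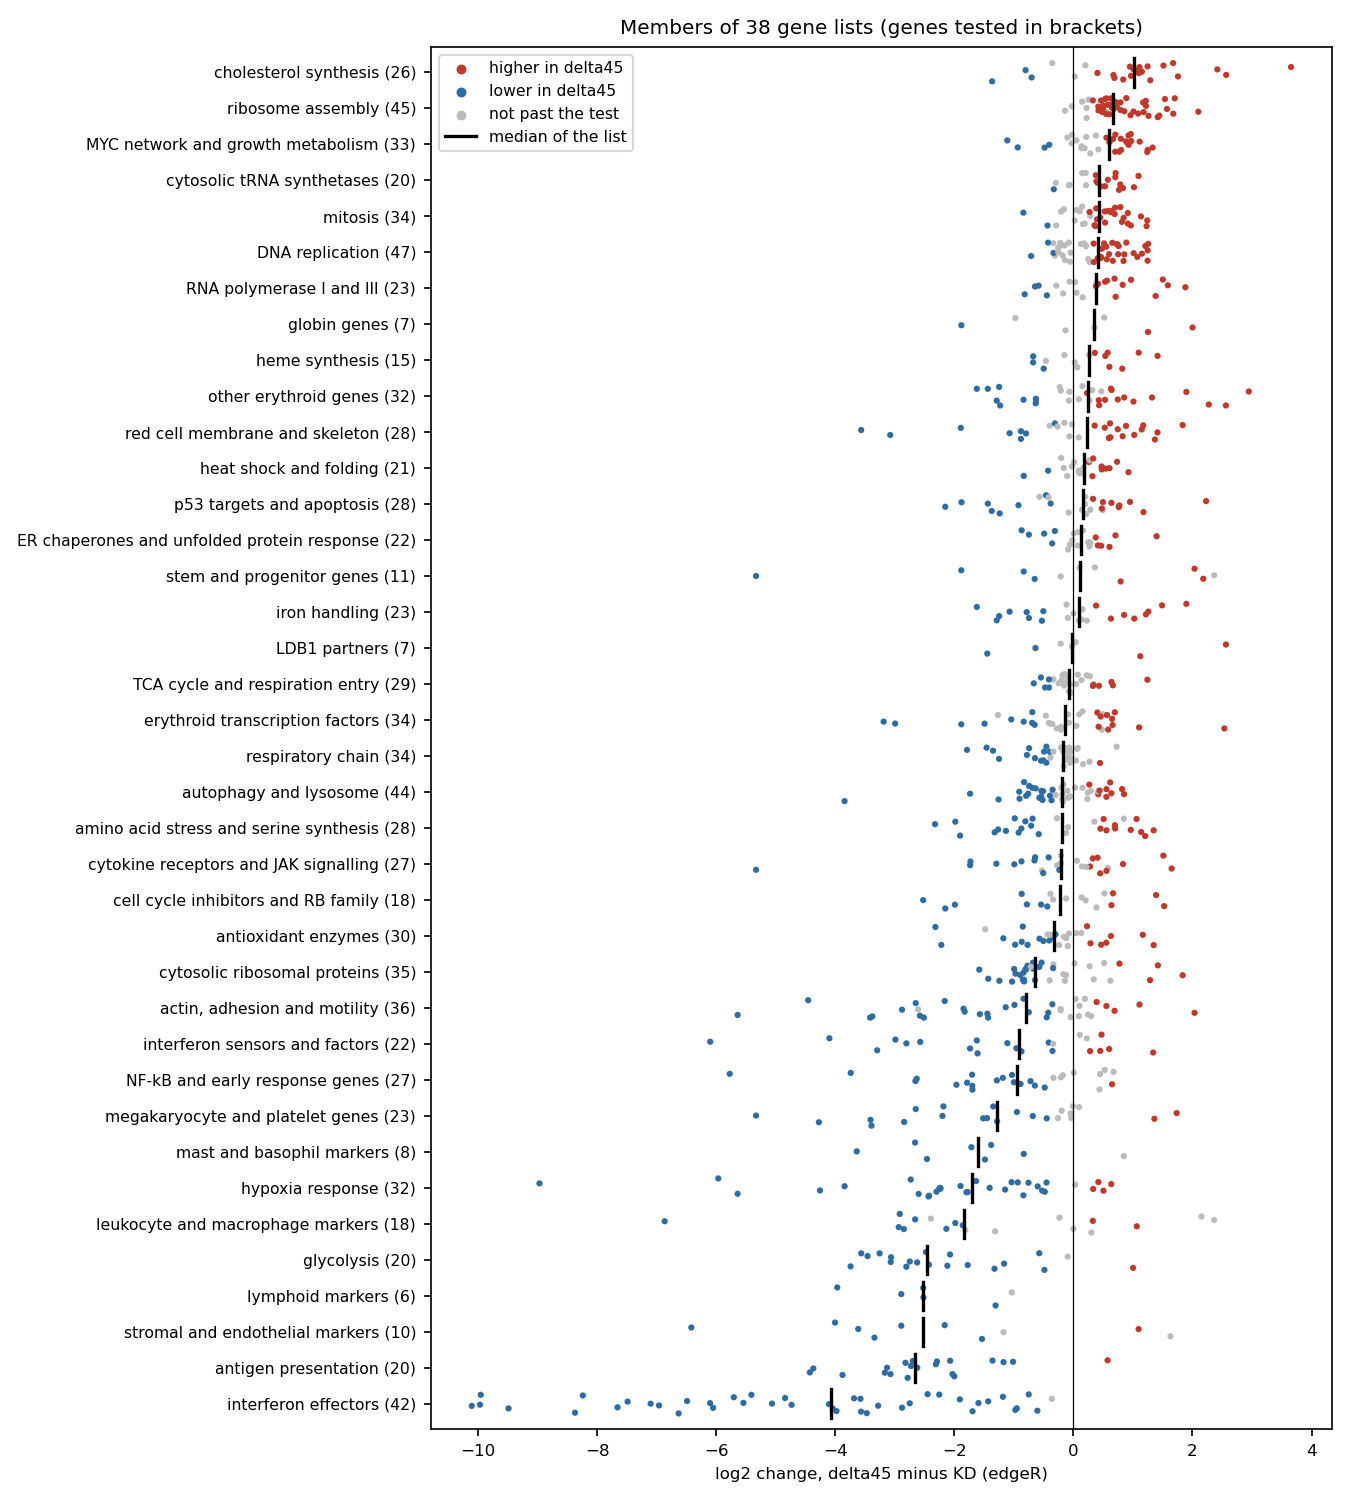
Log2 change of each tested member of 38 gene lists, delta45 minus KD, with the lists ordered by their median (black bar). Red points were called higher, blue points lower, and grey points did not pass the test. Cholesterol synthesis is at the top (median 1.03) and interferon effectors at the bottom (median -4.07).

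Ldb1 stood at 750, 781 and 764 CPM in delta45 and at 159, 132 and 97.1 CPM in KD. All delta45 libraries were above all KD libraries, 5.91-fold by the fit (log2 change 2.56 ± 0.16, edgeR adjusted p = 1.03e-07). Full-length cells had 3439 ± 245 CPM and control cells 718 ± 71.2 CPM. The counts do not tell construct reads from reads of the cells' own gene, so how much of the mRNA came from the construct was not tested. Of 7 LDB1 partner genes tested, 2 rose and 2 fell, 28.6% each way beside 29.2% and 30.7% of all tested genes. Ldb1 itself and Rlim, a ubiquitin ligase of LIM factors and their cofactors, rose. Rlim was at 291 ± 33.3 CPM in delta45 against 133 ± 42.8 CPM in KD. Ssbp4 and Ssbp3, whose proteins bind LDB1 and protect it from turnover, fell to 52.5 and 122 CPM in delta45, against 143 and 190 CPM in KD. Lmo2, the LIM-only bridge of the complex, was at 79.2 ± 1.35 CPM in delta45 and 91.9 ± 20.1 CPM in KD, with overlapping libraries.

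Globin mRNA stayed far below the FL and control cells. Of 7 globin genes tested, 2 were higher than in KD (28.6%, beside 29.2% of all tested genes) and 1 lower (14.3%, beside 30.7%). With 1 library left out the higher count was 1 to 3. It was 1 when KD replicate 1 or 2 or delta45 replicate 3 was dropped and 3 when KD replicate 3 was dropped. A fit of the 6 delta45 and KD libraries alone tested 4 of the genes and called 1 higher, and removing the trend of log2 change over gene length, chosen after seeing the data, gave 3. Hba-a1, an adult alpha-globin gene, had 629, 807 and 871 CPM in delta45 and 599, 739 and 1192 CPM in KD, and the groups overlapped (log2 change -0.13 ± 0.22, edgeR adjusted p = 0.62). It averaged 9624 CPM in FL and 4780 CPM in control. Hbb-bs, an adult beta-globin gene, had 627, 653 and 645 CPM in delta45 against 114, 238 and 456 CPM in KD, 2.38-fold higher without overlap (log2 change 1.25 ± 0.35, edgeR adjusted p = 0.00743). Its neighbour Hbb-bt went the other way, at 76.3, 102 and 104 CPM in delta45 against 297, 291 and 451 CPM in KD (log2 change -1.88 ± 0.17, edgeR adjusted p = 1.95e-06). Reads of such near-identical copies, Hba-a1 and Hba-a2 included, can be lost or given to the wrong copy, so the source of each value is uncertain. Hbq1b had 20.3 ± 2.15 CPM in delta45 and 15.9 ± 8.59 CPM in KD and did not pass the test. Hbq1a, Hba-a2 and Hba-x held 30, 34 and 5 reads over the delta45 libraries and 5, 17 and 7 over the KD libraries, too few to say more than that Hbq1a was called higher. The summed level of all 11 globin genes in the list, tested or not, was 1354 to 1645 CPM in delta45 and 1020 to 2128 CPM in KD. In these bulk libraries, fewer cells that make an mRNA and less of it per cell cannot be told apart.

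Other erythroid genes moved both ways. Heme synthesis had 7 of 15 genes higher (46.7%, beside 29.2% of all tested genes) and 3 lower (20%, beside 30.7%), with a median of 0.26. Its summed level was 3564 to 3792 CPM in delta45 and 2841 to 4125 CPM in KD, so the groups overlapped. Without KD replicate 1, the lowest of the KD libraries for this list, 5 genes were higher and 4 lower, with a median of 0.08. Alad, the enzyme that makes porphobilinogen, had 441, 508 and 549 CPM in delta45 against 196, 282 and 370 CPM in KD, 1.77-fold higher without overlap. Slc25a37 (mitoferrin 1), which imports mitochondrial iron, was at 126 ± 3.17 CPM in delta45 against 47.3 ± 16.1 CPM in KD. Alas2, the erythroid enzyme that starts the pathway, was lower, at 309, 289 and 318 CPM in delta45 against 347, 470 and 647 CPM in KD, a difference of 1.6-fold without overlap (edgeR adjusted p = 0.00505). In FL the levels were 5166 CPM for Alas2 and 1038 CPM for Alad. With the median of each chromosome removed, a setting chosen after seeing the data, heme synthesis had 4 genes higher and 4 lower.

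Genes of the red cell membrane and skeleton were higher for 14 of 28 (50%, beside 29.2% of all tested genes) and lower for 8 (28.6%, beside 30.7%), with a median of 0.22. Their summed level was 6324 to 6603 CPM in delta45 and 4775, 6233 and 6213 CPM in KD replicates 1, 2 and 3. Without KD replicate 1, 13 were higher and 11 lower and the median was 0.05, and without KD replicate 2, 14 were higher and 6 lower with a median of 0.41. Ank1, the ankyrin that ties spectrin to the membrane, had 615, 612 and 620 CPM in delta45 and 114, 230 and 174 CPM in KD, 3.57-fold higher (log2 change 1.84 ± 0.19, edgeR adjusted p = 4.79e-06). This was also above FL, at 359 CPM, and control, at 242 CPM (edgeR adjusted p = 0.0026 and 2.97e-05). Xk (a membrane protein linked to the Kell antigen), Ermap (the Scianna blood group protein), Slc14a1 (the urea transporter) and Rhag (the Rh-associated glycoprotein) were 2.03-fold to 2.66-fold higher. The lower members included Slc2a1, the glucose transporter, at 20.2 ± 2.67 CPM in delta45 against 239 ± 92.9 CPM in KD, and Bcam, the Lutheran antigen, at 6.73 CPM in delta45 against 56.6 CPM in KD. Aqp1, the water channel, was at 356 CPM in delta45 against 656 CPM in KD. Leaving out KD replicates 2 and 3 together, the libraries high in interferon genes, was also chosen after seeing the data. It leaves KD with 1 library, which is assumed to vary like the libraries of the other groups, and here it gave 16 members higher and 4 lower.

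Of 32 further erythroid genes, 14 rose (43.8%, beside 29.2% of all tested genes) and 9 fell (28.1%, beside 30.7%). Their summed level was 9360 to 9549 CPM in delta45 and 7688 to 10706 CPM in KD. Tfrc, the transferrin receptor that takes up iron, had the largest gain in CPM of all genes: 2485, 1913 and 1961 CPM in delta45 against 543, 514 and 650 CPM in KD (log2 change 1.90 ± 0.24, edgeR adjusted p = 2.88e-05). It reached 6279 CPM in FL and 849 CPM in control. Cpeb4, a translation regulator of terminal erythroid maturation, had 705, 616 and 614 CPM in delta45 against 156, 110 and 60.9 CPM in KD, 5.91-fold higher without overlap. Erfe (erythroferrone, the erythroid hormone that represses hepcidin) was 4.84-fold higher at 58 ± 1.84 CPM in delta45 against 12 ± 0.948 CPM in KD, and stood at 11.3 CPM in FL. Car2 (carbonic anhydrase 2) was 2.5-fold higher. Car1 was 7.71-fold higher but scarce, at 21.3 ± 1.32 CPM in delta45 against 2.72 ± 0.601 CPM in KD, beside 495 CPM in control and 0.284 CPM in FL. Falling members included Tfr2, a second transferrin receptor (30.6 CPM in delta45 against 94.1 CPM in KD), Bcl2l1, the survival factor BCL-XL (35.5 CPM in delta45 against 96.2 CPM in KD), Hmox1, heme oxygenase 1 (64 CPM in delta45 against 156 CPM in KD), and Fth1, the ferritin heavy chain. Fth1 had 1264, 1426 and 1371 CPM in delta45 and 2833, 2958 and 3849 CPM in KD, 2.37-fold lower without overlap. This gene lies on chromosome 19, where 71.4% of the tested genes were lower, with a median of -0.84.

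Of 23 iron handling genes, 8 rose and 8 fell, 34.8% each way beside 29.2% and 30.7% of all tested genes. Tfrc rose with Ireb2, an iron regulatory protein (289 CPM in delta45 against 142 CPM in KD), and Flvcr1, a heme exporter (61.1 CPM in delta45 against 21.7 CPM in KD). The chromosome 19 gene Fth1 fell, as did Slc48a1, a heme transporter, at 472 ± 50.4 CPM in delta45 and 992 ± 70.6 CPM in KD.

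Among 34 erythroid transcription factor genes, 10 rose (29.4%) and 9 fell (26.5%), near the 29.2% and 30.7% of all tested genes. With the length trend removed 6 were higher and 13 lower. Sox6, a factor that represses embryonic globin, had 58.7, 56 and 51 CPM in delta45 against 13.7, 7.06 and 7.35 CPM in KD (log2 change 2.54 ± 0.22, edgeR adjusted p = 1.25e-06), beside 68.4 CPM in FL and 42.3 CPM in control. Ikzf1 (Ikaros) and Bach1, a heme-sensing repressor, were at 282 and 86.1 CPM in delta45 and at 131 and 53.2 CPM in KD. Spi1, whose product PU.1 drives myeloid fate and binds GATA1, fell 9.11-fold, with 2.39, 3.51 and 3.03 CPM in delta45 against 28.2, 27.9 and 24.7 CPM in KD. Id1, an inhibitor of TAL1's partner proteins, had 7.59, 9.01 and 9.31 CPM in delta45 against 42, 83.9 and 80.4 CPM in KD. Gata1 and Tal1, genes of the complex itself, were lower without overlap. Gata1 had 465, 481 and 474 CPM in delta45 against 575, 767 and 950 CPM in KD (edgeR adjusted p = 0.00147), and Tal1 had 763, 746 and 757 CPM in delta45 against 779, 1169 and 1609 CPM in KD (edgeR adjusted p = 0.00998). Klf1, an activator of adult beta-globin, was at 229 ± 45.2 CPM in delta45 and 244 ± 92.4 CPM in KD and did not pass the test. Lyl1, a relative of TAL1, Gfi1b, a repressor, and Gata2, the earlier GATA factor, were 1.78-fold to 3.69-fold lower.

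**Figure D2:**
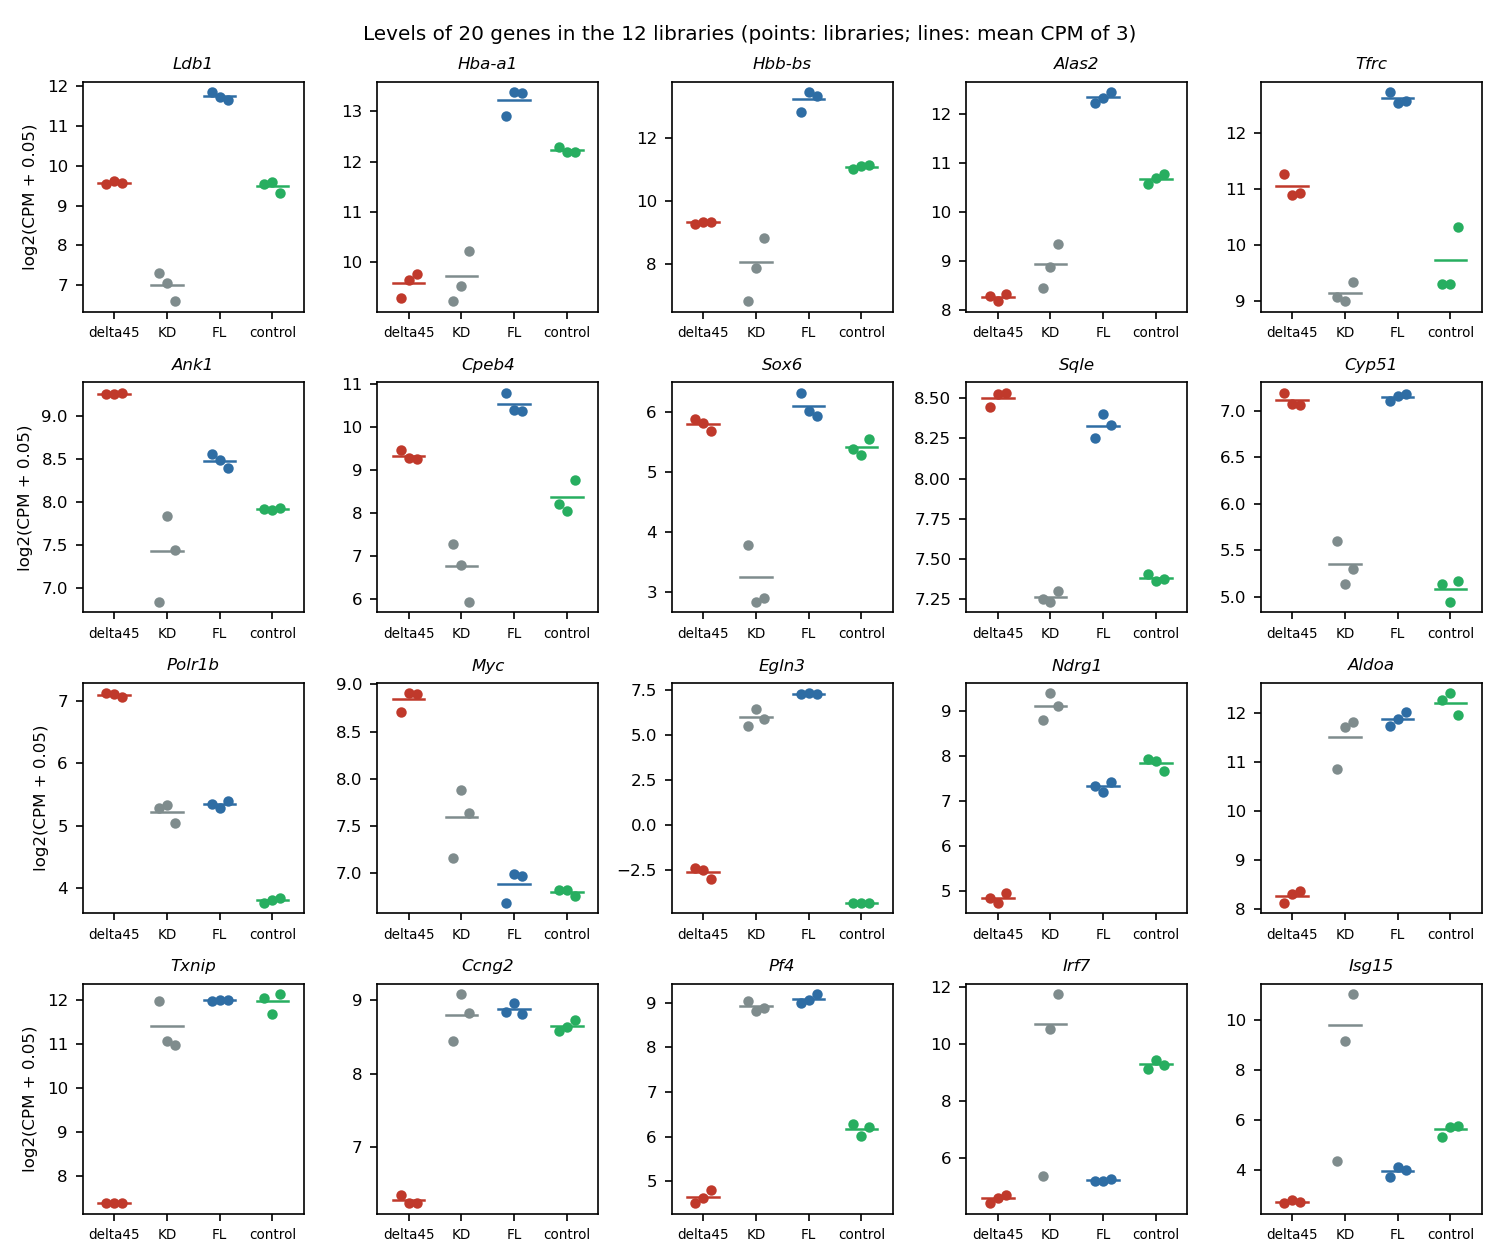
Level of 20 genes in each library, as log2(CPM + 0.05), with a panel per gene and its own vertical scale. Points are libraries and lines the mean CPM of 3 libraries. Hba-a1 overlaps between delta45 and KD, whereas Tfrc, Ank1, Sox6 and Sqle lie above KD and Egln3, Aldoa, Txnip and Pf4 below it in all delta45 libraries. KD replicate 1 is apart from the other KD libraries for Irf7 and Isg15.

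Sterol genes rose, 20 of 26 higher (76.9%, beside 29.2% of all tested genes) and 3 lower (11.5%, beside 30.7%). Their median was 1.03, against -0.01 over all tested genes. SREBP factors switch these genes on when a cell is short of cholesterol. Sqle, the squalene epoxidase, had 348, 369 and 371 CPM in delta45 against 152, 150 and 157 CPM in KD, 2.37-fold higher without overlap (log2 change 1.25 ± 0.09, edgeR adjusted p = 1.98e-07). It was at 322 CPM in FL and 166 CPM in control. Cyp51, the lanosterol demethylase, had 147, 135 and 134 CPM in delta45 against 48.4, 35.1 and 39.2 CPM in KD (log2 change 1.76 ± 0.12, edgeR adjusted p = 2.20e-07), beside 142 CPM in FL and 33.9 CPM in control.

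Further enzymes of the pathway rose as well. Idi1, Msmo1 and Lss were 5.92-fold, 5.34-fold and 2.85-fold higher. The transporter gene Stard4 was 3.19-fold higher. The regulators Srebf2, Insig1 and Srebf1 were called higher at 240, 102 and 175 CPM in delta45 against 134, 47.6 and 132 CPM in KD, Srebf1 with overlapping libraries. The members that fell included Insig2 (30.4 CPM in delta45 against 53 CPM in KD) and Tm7sf2 (11.2 CPM in delta45 against 18.1 CPM in KD). Tm7sf2 lies on chromosome 19, and its log2 change of -0.70 was 0.09 with the chromosome medians removed. Fasn, the fatty acid synthase, had 1215, 1368 and 1390 CPM in delta45 and 481, 561 and 379 CPM in KD. It was among the 5 genes with the largest gain in CPM. The count of higher sterol genes was 19 or 20 when any library was left out. Against FL, 8 of the 26 were higher and 3 lower in delta45, and against control 16 and 3.

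Genes of the hypoxia response were lower for 27 of 32 (84.4%, beside 30.7% of all tested genes) and higher for 4 (12.5%, beside 29.2%). Their median was -1.70. Against KD replicate 1 alone, 22 were lower and 1 higher with a median of -1.06. The higher count was 1 with the length trend removed and 2 in a fit of the 6 libraries alone or with chromosome medians removed. HIF1A with its partner ARNT switches on these genes, and prolyl hydroxylases of the EGLN family mark HIF1A for destruction when oxygen is present. Egln3, a prolyl hydroxylase that HIF itself induces, had 0.141, 0.128 and 0.0757 CPM in delta45 against 46.7, 87 and 60.6 CPM in KD, a decrease of 501-fold on 6 reads in delta45 (log2 change -8.97 ± 0.34, edgeR adjusted p = 1.32e-08). It averaged 159 CPM in FL and had 0 reads in control. Ankrd37, a HIF target, had 1.97, 2.04 and 2.12 CPM in delta45 against 76.6, 166 and 141 CPM in KD. Ndrg1, a stress-induced gene, was at 28.9 ± 2.22 CPM in delta45 against 553 ± 111 CPM in KD, and Bnip3, a mitophagy receptor, at 7.43 ± 0.316 CPM in delta45 against 107 ± 32.2 CPM in KD. These groups did not overlap. The members that rose were Hif1a itself (101 ± 12.6 CPM in delta45 and 71.1 ± 22.2 CPM in KD, overlapping), Arnt, Pfkfb3 and Stc2. Vegfa, the angiogenic growth factor, was 2.21-fold lower at 111 ± 4.52 CPM in delta45 against 246 ± 82.1 CPM in KD.

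Glycolysis was lower for 18 of 20 genes (90%, beside 30.7% of all tested genes) and higher for 1 (5%, beside 29.2%). Its median was -2.45. The change covered the pathway from glucose entry to lactate export. The glucose transporter Slc2a3 was at 96.9 CPM in delta45 against 539 CPM in KD, hexokinase 2 (Hk2) at 33.1 CPM in delta45 against 114 CPM in KD, and Pfkl, of phosphofructokinase, at 173 CPM in delta45 against 749 CPM in KD. Aldoa, an aldolase, had 279, 314 and 328 CPM in delta45 against 1841, 3364 and 3590 CPM in KD (log2 change -3.26 ± 0.23, edgeR adjusted p = 2.14e-07). It had the largest loss in CPM of all genes, and was at 3776 CPM in FL and 4755 CPM in control. Tpi1, Pgk1, Eno1, Pkm and Ldha were 5.38-fold to 11-fold lower, and the lactate exporter Slc16a3 8.36-fold lower. Pkm, of pyruvate kinase, had 407, 410 and 411 CPM in delta45 against 1600, 2506 and 2500 CPM in KD. Hk1, hexokinase 1, was at 640 ± 3.92 CPM in delta45 and 684 ± 150 CPM in KD and did not pass the test. Slc16a1, the other monocarboxylate transporter measured, was 2-fold higher. Pgk1, Gapdh, Pgam1 and Eno1 have many pseudogenes, so their reads can be lost or split. In delta45, 17 of the 20 genes were also below FL and 16 below control.

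Txnip, an inhibitor of glucose uptake that glucose itself induces, was 16.5-fold lower, with 165, 167 and 167 CPM in delta45 against 4042, 2155 and 2012 CPM in KD (edgeR adjusted p = 7.48e-08). It averaged 4095 CPM in FL and 4017 CPM in control. Pdk1, which closes pyruvate's way into mitochondria, was at 62.3 CPM in delta45 against 232 CPM in KD. The tricarboxylic acid cycle had 6 of 29 genes higher (20.7%) and 5 lower (17.2%) with a median of -0.07. Over all tested genes 29.2% were higher and 30.7% lower. The respiratory chain had 1 of 34 higher and 13 lower. Among its lower members, Cox8a, Ndufb8, Ndufs8 and Ndufv1 lie on chromosome 19. The median of the respiratory chain was -0.17. With the trend over gene length removed, 7 of its genes were lower and 3 higher with a median of 0.02. With chromosome medians removed, 16 were lower and 2 higher with a median of -0.33.

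The core of the hypoxia response element, ACGTG, was searched on both strands of RefSeq promoter windows (GRCm38.p6, 250 bases before to 50 after a gene's start). It was present for 15 of 23 lower hypoxia genes and 11 of 17 lower glycolysis genes with a window, against 21.8% of all 27025 genes with one. It was also present for 18 of 28 tested hypoxia genes and 13 of 19 tested glycolysis genes whatever their call. The 27025 genes include ones that were not tested for a change, and the share among tested genes alone was not taken. The windows of 3 lower genes are shown because their mRNA differed most among those at 50 CPM or more in either group whose window holds the core. Capitals mark the core, and CACGTG in Bnip3 reads as the core on both strands. A match is a description of the letters, not evidence of binding.
Egln3 (chr12:54203825-54204124, minus strand): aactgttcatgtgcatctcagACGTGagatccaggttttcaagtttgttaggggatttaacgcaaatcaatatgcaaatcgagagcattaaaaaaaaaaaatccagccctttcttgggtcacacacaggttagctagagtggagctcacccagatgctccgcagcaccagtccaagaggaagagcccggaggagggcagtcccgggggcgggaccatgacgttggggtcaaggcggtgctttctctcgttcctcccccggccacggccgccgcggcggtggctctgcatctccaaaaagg
Ankrd37 (chr8:45999801-46000100, minus strand): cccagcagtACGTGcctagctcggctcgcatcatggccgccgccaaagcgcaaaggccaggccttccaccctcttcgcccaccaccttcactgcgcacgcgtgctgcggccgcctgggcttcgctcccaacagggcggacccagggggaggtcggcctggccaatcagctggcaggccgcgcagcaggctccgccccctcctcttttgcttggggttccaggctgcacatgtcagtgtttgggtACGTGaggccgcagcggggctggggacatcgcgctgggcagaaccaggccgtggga
Bnip3 (chr7:138909457-138909756, minus strand): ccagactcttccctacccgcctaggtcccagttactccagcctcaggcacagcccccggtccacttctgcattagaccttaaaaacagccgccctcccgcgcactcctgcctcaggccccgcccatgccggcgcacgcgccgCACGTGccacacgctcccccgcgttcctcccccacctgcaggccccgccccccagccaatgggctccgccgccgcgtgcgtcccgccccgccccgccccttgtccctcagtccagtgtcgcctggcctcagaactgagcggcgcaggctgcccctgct

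The sterol regulatory element, searched as ATCAC, any base and CCAC, was looked for in the same way. It was in the windows of 0 of 13 higher sterol genes that had one, and of 0.27% of all genes. So rare a string would hardly be met among 13 genes, so the 0 does not tell whether they hold such an element. The GATA letters AGATAA and TGATAA were in the windows of 5 of 10 higher membrane genes and 7 of 21 of those tested, against 21% of all genes. They were in those of 1 of 5 higher heme genes, and of 1 of 9 higher and 7 of 23 tested genes in the list of further erythroid genes.

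Ribosome assembly genes were higher for 38 of 45 (84.4%, beside 29.2% of all tested genes) and lower for 0, with a median of 0.67. These genes build ribosomal subunits in the nucleolus. Utp20, a processome subunit, was 4.28-fold higher at 79.6 CPM in delta45 against 18.5 CPM in KD. Tsr1, Heatr1, Nat10 and Ddx21 were 2.72-fold to 3.26-fold higher, and nucleolin (Ncl) was at 1108 ± 109 CPM in delta45 against 668 ± 100 CPM in KD. The 3 delta45 libraries lay above the 3 KD libraries for 41 of the 45, beside 32.4% of all tested genes. Against FL, 44 of 45 were higher in delta45 and against control all 45, so the level in delta45 was the highest of the 4 groups for most of these genes. Over all tested genes 52.8% differed from FL and 64.4% from control, in either direction. Polr1b, the second largest subunit of RNA polymerase I, had 140, 139 and 134 CPM in delta45 against 38.9, 40.4 and 32.7 CPM in KD (log2 change 1.88 ± 0.10, edgeR adjusted p = 3.30e-08), beside 40.5 CPM in FL and 13.9 CPM in control. Of 23 genes for RNA polymerases I and III and their factors 12 rose (52.2%) and 4 fell (17.4%). Over all tested genes 29.2% rose and 30.7% fell. Polr1a was 2.61-fold and Bdp1 3-fold higher, and Taf1b 1.76-fold lower.

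The proteins of the finished ribosome went the other way, with 20 of 35 lower (57.1%), 4 higher (11.4%) and a median of -0.64. Over all tested genes 30.7% were lower and 29.2% higher. Rps3 was at 831 ± 38.1 CPM in delta45 and 1475 ± 333 CPM in KD, and Rps14 at 242 CPM in delta45 against 652 CPM in KD. Rack1, a scaffold on the small subunit, was among the 5 genes with the largest loss in CPM, with 1716, 1802 and 1910 CPM in delta45 against 3158, 3196 and 4092 CPM in KD. Against KD replicate 1 alone, its spread taken from the other groups, 9 were lower with a median of -0.24. With the length trend removed, 14 were lower and 7 higher, and when any 1 library was left out 14 to 22 were lower. Many ribosomal protein genes have processed pseudogenes, so these values are uncertain. Those called higher included Rpl10a, Rpl3 and Rpl5, the first at 126 CPM in delta45 against 35.5 CPM in KD.

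Myc, a driver of growth and ribosome building, had 419, 479 and 477 CPM in delta45 against 144, 236 and 199 CPM in KD, 2.38-fold higher without overlap (log2 change 1.25 ± 0.15, edgeR adjusted p = 2.52e-05). It was at 118 CPM in FL and 112 CPM in control. In its network and growth metabolism 18 of 33 genes rose (54.5%, beside 29.2% of all tested genes) and 4 fell (12.1%, beside 30.7%). Among those that rose, Cad, the pyrimidine enzyme, was at 328 CPM in delta45 against 130 CPM in KD, and the purine enzymes Atic, Gart and Ppat at 269, 185 and 164 CPM in delta45 against 124, 97.5 and 84 CPM in KD. Shmt1, a one-carbon enzyme, was 2.36-fold higher. The members that fell were Max, MYC's partner, and Mxi1, Mxd4 and Mxd3, which compete with MYC for it. Mxd4 was at 291 ± 9.58 CPM in delta45 against 628 ± 171 CPM in KD. Mir17hg, host of the MYC-induced miR-17-92 cluster, had 40.4, 36.2 and 36.9 CPM in delta45 against 6.34, 4.23 and 2.36 CPM in KD, 8.63-fold higher.

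Of 20 cytosolic tRNA synthetase genes 13 rose (65%, beside 29.2% of all tested genes) and 1 fell (5%, beside 30.7%). Iars and Lars were 2.14-fold and 2.02-fold higher. In the amino acid list, transporters among those that rose were Slc7a1, up to 295 CPM in delta45 against 128 CPM in KD, Slc1a5, to 166 CPM in delta45 against 75.5 CPM in KD and Slc7a5, to 425 CPM in delta45 against 262 CPM in KD. Targets of the stress factor ATF4 among those that fell were Trib3, to 33.2 CPM in delta45 against 166 CPM in KD, Atf5, to 48.2 CPM in delta45 against 180 CPM in KD and Sesn2, to 124 CPM in delta45 against 273 CPM in KD. Atf4 itself was at 531 ± 37.8 CPM in delta45 and 566 ± 108 CPM in KD and did not pass. In that list as a whole 10 of 28 were higher (35.7%, beside 29.2% of all tested genes) and 13 lower (46.4%, beside 30.7%).

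DNA replication genes were higher for 26 of 47 (55.3%) and lower for 3 (6.38%), and mitosis genes for 22 of 34 (64.7%) and 2 (5.88%). Over all tested genes 29.2% were higher and 30.7% lower. The replication licensing factor Cdc6 had 189, 202 and 196 CPM in delta45 against 84.1, 77.6 and 83.9 CPM in KD (log2 change 1.26 ± 0.09, edgeR adjusted p = 2.83e-07). Uhrf1, which carries DNA methylation through replication, was 2.37-fold, Ccne2 2.37-fold and Mcm4 2.02-fold higher. Mki67, the proliferation marker, had 2133, 1796 and 1842 CPM in delta45 against 1050, 886 and 507 CPM in KD, and Cenpf, a kinetochore gene, was 2.34-fold higher. Rrm2, Cdk1 and Aurka were at 101, 141 and 115 CPM in delta45 and 112, 157 and 113 CPM in KD, and did not pass. The fallers were Rfc2, Tk1 and Pola2 in replication and Cenpa and Pttg1 in mitosis. In delta45, 46 of the 47 replication genes were above FL, and 38 were above and 4 below control. Of the 34 mitosis genes, 32 were above and 1 below FL, whereas 5 were above and 16 below control (median -0.25).

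Genes that restrain the cycle moved both ways, with 7 of 18 lower (38.9%, beside 30.7% of all tested genes) and 4 higher (22.2%, beside 29.2%). Ccng2, cyclin G2, had 81.4, 75.7 and 75.3 CPM in delta45 against 346, 540 and 451 CPM in KD, and Cdkn1a, the inhibitor p21, had 28.7, 27.1 and 28.9 CPM in delta45 against 123, 136 and 118 CPM in KD. The groups did not overlap for either gene, 5.75-fold and 4.45-fold lower. Cdkn1a was at 24.4 CPM in FL and 33.5 CPM in control, and delta45 was not called different from either (edgeR adjusted p = 0.171 and 0.096). Rbl1, p107 of the retinoblastoma family, and Cdk6, a G1 kinase, were 2.62-fold and 2.88-fold higher. Of 28 p53 target and apoptosis genes 9 rose (32.1%, beside 29.2% of all tested genes) and 8 fell (28.6%, beside 30.7%). Mdm4, the p53 inhibitor, was 4.69-fold higher with 56.3, 45 and 47.5 CPM in delta45 against 17.7, 8.9 and 4.64 CPM in KD, and Bcl2, a survival gene, 2.26-fold higher. Bad, which promotes death, fell 3.68-fold.

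**Figure D3:**
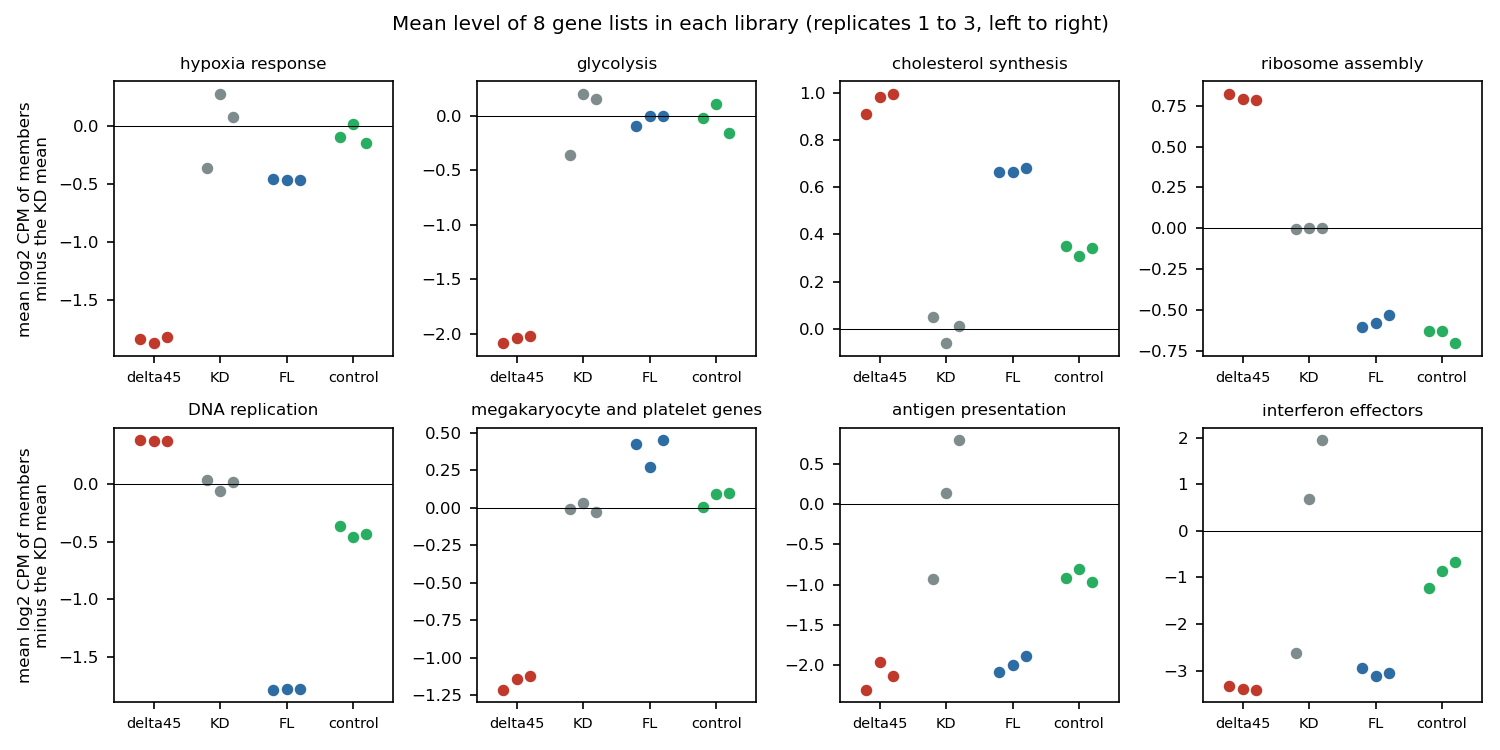
Mean log2 CPM of the members of 8 gene lists in each library, less the mean of the KD libraries, with replicates 1 to 3 from left to right in each group. The delta45 libraries are below all others for hypoxia and glycolysis and above all others for sterol and ribosome assembly genes. For interferon effectors KD replicate 1 is near the delta45 and FL libraries and KD replicates 2 and 3 are far above.

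Interferon effectors were lower for 41 of 42 (97.6%, beside 30.7% of all tested genes) and higher for 0, with a median of -4.07. The size of the change and some of the calls depended on KD replicates 2 and 3. The 3 delta45 libraries lay wholly below the 3 KD libraries for 23 of the 42, beside 31% of all tested genes. Without KD replicate 3, 32 of 42 were lower, and without KD replicate 2, 40. Interferon induces these genes as a defence against viruses. Their summed level was 1306, 1277 and 1271 CPM in delta45 against 1397, 8254 and 17857 CPM in KD replicates 1, 2 and 3. Isg15, a ubiquitin-like modifier, had 6.28, 6.84 and 6.58 CPM in delta45 against 20.6, 576 and 2110 CPM in KD (log2 change -7.10 ± 1.14, edgeR adjusted p = 1.88e-04). Irf7, an interferon-inducing factor, had 21.1, 24.2 and 26.2 CPM in delta45 against 41.6, 1457 and 3405 CPM in KD, and Rsad2 (viperin) had 2.91, 3.26 and 3.25 CPM in delta45 against 16.2, 490 and 1393 CPM in KD. In each case KD replicate 1 was closest to delta45 and the other KD libraries lay far above. Against KD replicate 1 alone, 18 of the effectors were lower and 3 higher, with a median of -0.66. These calls have 1 KD library and take its spread from the other groups. Why the KD libraries differ was not tested. Summed effectors in FL were 1351 to 1446 CPM.

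The interferon-stimulated response element was searched on both strands as GAAA, any 2 bases and GAAA. It was in the windows of 15 of 31 lower effector genes, 4 of 15 lower antigen presentation genes and 3.99% of all genes. Whatever their call, 16 of 32 tested effector genes and 5 of 16 tested antigen presentation genes held it. Ifit1 and Gbp3, 2 of the lower genes with the largest change whose window holds it, hold it in reverse, and capitals mark it as TTTC, 2 bases and TTTC, with 2 overlapping matches in Gbp3. The first, an antiviral RNA-binding protein, had 0.469, 0.575 and 0.151 CPM in delta45 against 2.93, 213 and 1052 CPM in KD. The second, a guanylate-binding protein, had 0.141, 0.128 and 0.454 CPM in delta45 against 1.05, 46.7 and 162 CPM in KD.
Ifit1 (chr19:34640639-34640938, plus strand): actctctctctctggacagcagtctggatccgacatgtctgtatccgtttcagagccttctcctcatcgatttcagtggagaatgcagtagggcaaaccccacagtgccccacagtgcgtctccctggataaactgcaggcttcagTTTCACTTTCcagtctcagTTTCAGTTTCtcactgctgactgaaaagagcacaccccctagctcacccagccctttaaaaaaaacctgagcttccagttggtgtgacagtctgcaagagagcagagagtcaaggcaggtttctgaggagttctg
Gbp3 (chr3:142559794-142560093, plus strand): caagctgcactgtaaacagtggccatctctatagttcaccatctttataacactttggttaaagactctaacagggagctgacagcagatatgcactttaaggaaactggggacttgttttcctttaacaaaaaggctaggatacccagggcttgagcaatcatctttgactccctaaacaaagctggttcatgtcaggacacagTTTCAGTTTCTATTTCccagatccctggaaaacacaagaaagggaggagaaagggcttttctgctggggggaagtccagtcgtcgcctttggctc

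Antigen presentation was lower for 19 of 20 genes (95%, beside 30.7% of all tested genes) and higher for 1 (5%, beside 29.2%). B2m, the class I light chain, had 320, 270 and 255 CPM in delta45 against 445, 1156 and 2541 CPM in KD, and Psmb8, of the immunoproteasome, 29, 32.7 and 27.6 CPM in delta45 against 96.2, 232 and 424 CPM in KD. The groups were separate for both, and the summed level was 1184 to 1206 CPM in delta45 against 2149, 6312 and 10762 CPM in KD. The median of -2.66 was -0.98 against KD replicate 1 alone, with 16 of the genes lower and no spread among KD libraries behind these calls. Among 22 interferon sensors and factors 14 fell (63.6%, beside 30.7% of all tested genes) and 5 rose (22.7%, beside 29.2%). Their median of -0.92 was 0.02 against KD replicate 1 alone. Cgas, the DNA sensor, was 2.53-fold higher.

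Megakaryocyte and platelet genes fell for 15 of 23 (65.2%, beside 30.7% of all tested genes) and rose for 2 (8.7%, beside 29.2%). Their median was -1.28. Pf4, platelet factor 4, had 22.6, 24.6 and 27.9 CPM in delta45 against 526, 454 and 473 CPM in KD, 19.4-fold lower without overlap (edgeR adjusted p = 4.15e-10), beside 546 CPM in FL and 72.2 CPM in control. Itga2b, integrin alpha IIb, was at 110 CPM in delta45 against 266 CPM in KD. The gene P2ry1, an ADP receptor of platelets, rose to 91.5 CPM in delta45 against 27.5 CPM in KD, and Nbeal2, needed for platelet granules, to 89.3 CPM in delta45 against 34.7 CPM in KD. The level summed over the list was 1891 to 1986 CPM in delta45 and 2807 to 2967 CPM in KD.

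Leukocyte and macrophage markers fell for 8 of 18 (44.4%, beside 30.7% of all tested genes) and rose for 2 (11.1%, beside 29.2%). Their median was -1.84. The summed level of all 41 markers in the list was 630 to 657 CPM in delta45 and 1145 to 1217 CPM in KD. The higher count was 0 without KD replicate 2, delta45 replicate 1 or delta45 replicate 2 and in a fit of the 6 libraries alone, which tested 10 of the markers, and without KD replicate 1 it was 1 and the median -0.95. Laptm5, a lysosomal membrane protein of blood cells, was at 59.8 CPM in delta45 against 431 CPM in KD. Defining myeloid genes were near 0 in delta45: Csf1r at 0.192 CPM, Mpo at 0.128 CPM and Lyz2 at 0.0426 CPM, with 1.15, 0.148 and 5.69 CPM in KD. Mast and basophil markers fell for 7 of 8, lymphoid markers for 5 of 6 and stromal and endothelial markers for 7 of 10, and most of these were scarce. Without KD replicate 1, 3 of 6 lymphoid markers were lower and their median was -1.46, against -2.52 with it. The mean log2 level of the lymphoid markers, less the KD mean, was -1.85 to -1.64 in delta45 and 0.56, -0.32 and -0.24 in KD replicates 1, 2 and 3. The part of such cells in these values was not tested. Il10ra, a cytokine receptor, had 0.609, 0.575 and 0.53 CPM in delta45 against 65, 91.9 and 78.9 CPM in KD, 134-fold lower without overlap. It was at 86.8 CPM in FL and 54.7 CPM in control.

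Actin, adhesion and motility genes were lower for 21 of 36 (58.3%, beside 30.7% of all tested genes) and higher for 5 (13.9%, beside 29.2%). Without KD replicate 1, 21 of 35 were lower and 8 higher. Gsn (gelsolin, which cuts actin) was at 49.3 CPM in delta45 against 294 CPM in KD, Lgals9 (a galectin) at 200 CPM in delta45 against 708 CPM in KD and Tmsb4x (thymosin beta-4, which holds actin monomers) at 181 CPM in delta45 against 538 CPM in KD. Tmsb4x had 4291 CPM in FL and 0 reads in control. Itga4, the integrin of VLA-4, rose to 93 CPM in delta45 against 22.5 CPM in KD. Early response and NF-kB genes fell for 18 of 27 (66.7%, beside 30.7% of all tested genes) and rose for 1 (3.7%, beside 29.2%). Ier3, an early response gene, was at 16.7 CPM in delta45 against 103 CPM in KD and Nfkbia, the inhibitor of NF-kB, at 26.6 CPM in delta45 against 86.3 CPM in KD. Nfkb1 was the riser. Without KD replicate 2, 4 of 29 genes of this list were higher.

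The other lists were autophagy and lysosome (9 of 44 higher and 20 lower), antioxidant enzymes (7 of 30 higher and 12 lower), ER chaperones (6 of 22 and 5), heat shock and folding (9 of 21 and 2), stem and progenitor genes (3 of 11 and 4) and cytokine receptors and JAK signalling (8 of 27 and 11). Beside 29.2% higher and 30.7% lower over all tested genes, the shares were 27.3% and 22.7% for ER chaperones. They were 23.3% and 40% for antioxidant enzymes, and 20.5% and 45.5% for autophagy and lysosome. For heat shock they were 42.9% and 9.52%, for stem and progenitor genes 27.3% and 36.4%, and for cytokine receptors 29.6% and 40.7%. Prdx5, a peroxiredoxin on chromosome 19, was at 50.8 CPM in delta45 against 253 CPM in KD. Ern1, the unfolded-protein sensor IRE1, was 2.64-fold higher, and Csf2rb2, a cytokine receptor chain, 3.14-fold higher at 200 CPM in delta45 against 63.8 CPM in KD.

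Some of the largest folds were of genes outside these lists. Higher by fold were Xlr4b (15.9-fold, 5.6 CPM in delta45 against 0.339 CPM in KD, a gene with near-identical copies), the receptor gene Notch3 (12.4-fold), the ephrin gene Efnb3 (9.53-fold) and the phospholipase gene Pla2g4c (9.22-fold). Notch3 had 48, 47.9 and 44.5 CPM in delta45 against 4.6, 3.91 and 2.71 CPM in KD. After them came Mtx3 (a mitochondrial import protein), Ppia (cyclophilin A, with many pseudogenes), Zfp329, Yod1 (a deubiquitinase), Tmem91, Fbxo48, Grm5 (a glutamate receptor) and Trio (an exchange factor for small GTPases), 5.93-fold to 8.43-fold higher. Trio was the most abundant of them, with 225, 231 and 234 CPM in delta45 against 46.3, 50.6 and 19.7 CPM in KD. The largest gains in CPM were of Tfrc, Atp1b2 (a sodium pump subunit, 2336 CPM in delta45 against 862 CPM in KD), Mbnl1 (a splicing regulator, 2117 CPM in delta45 against 708 CPM in KD), Mki67 and Fasn.

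Among the 15 lower genes with the largest fold were several near 0 in delta45 and read in all KD libraries. Vash1, vasohibin 1, held 3 reads in delta45 and 43.2, 39.4 and 28.9 CPM in KD, a ratio of KD over delta45 of 628 (95% counting interval 214 to 3048). Kif26a, a kinesin, also held 3 reads in delta45, against 36.9, 43 and 18.3 CPM in KD, a ratio of 543 (185 to 2635). Vrtn held 1 read in delta45 and 298 in KD, a ratio of 428 (76.2 to 16949). These 3 genes and Egln3 all lie on chromosome 12. Vash1 was at 20.8 CPM in FL and 30.1 CPM in control. Mgarp, a gene on chromosome 3 for a mitochondrial protein, was at 0.379 ± 0.00424 CPM in delta45 against 63.3 ± 24.6 CPM in KD.

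Of those 15, 9 were interferon-induced and low in KD replicate 1. Apol9b had 0 reads in delta45 and 0.0697, 8.03 and 59.8 CPM in KD, at least 363-fold lower when delta45 was set at 3 reads over the group. It was the 1 gene with a symbol at 5 CPM or more in KD without reads in delta45, and 0 genes were so in the other direction. Ifi47 held 1 read in delta45 and 1138 in KD, a ratio of 1633 (293 to 64569), 0.0697 CPM of it in KD replicate 1. Ifi44 and Rtp4 held 3 and 2 reads in delta45 with ratios of 1215 (415 to 5894) and 840 (232 to 6941). Gbp2 had 0.0973 CPM in delta45 against 0.976, 9.44 and 48.3 CPM in KD. Of the 50 lower genes with the largest fold, 17 were in the interferon or antigen lists and 3 in the hypoxia or glycolysis lists.

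Genes of chromosome 19 were lower as a whole. Of its 420 tested genes 300 were lower (71.4%) and 18 higher, with a median of -0.84, beside 30.7% lower and -0.01 over all genes. The median level of its genes, relative to the mean of the 12 libraries, was -0.49, -0.43 and -0.44 on the log2 scale in delta45 and 0.27, 0.36 and 0.39 in KD. In FL it was 0.01 to 0.09 and in control 0.09 in each library. So delta45 was below and KD above the other groups in every library. The deficit ran along the chromosome: in 10 equal blocks of its gene order the median change was between -0.19 and -1.06 in each. Against FL the median of chromosome 19 was -0.51. Ldb1 itself lies on this chromosome and was higher. Without the trend over gene length the median was -0.80. Chromosome 12 was lower to a smaller degree, with 218 of 418 genes lower, 43 higher and a median of -0.42, and each of 10 blocks negative. Chromosomes 9 and 13 were higher, with 309 of 675 and 174 of 415 genes higher and medians of 0.30 and 0.29.

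**Figure D4:**
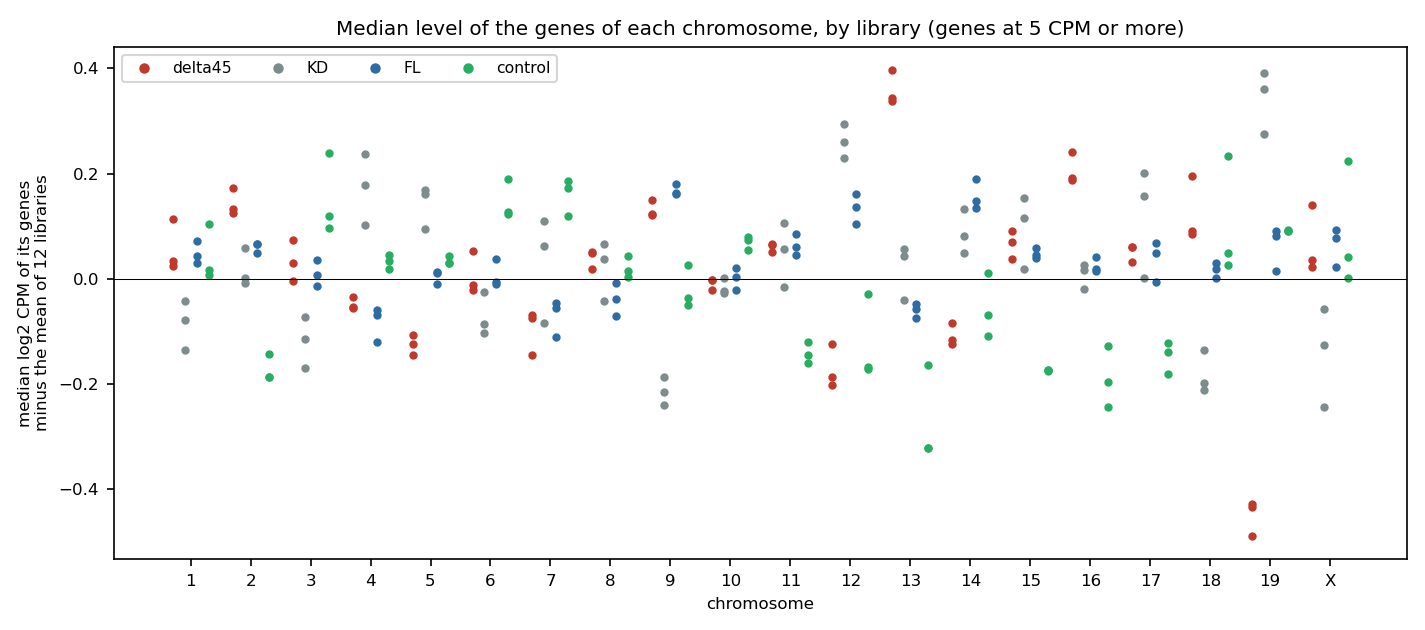
Median log2 CPM of the genes of each chromosome in each library, relative to the mean of the 12 libraries, for genes at 5 CPM or more. On chromosome 19 the delta45 libraries lie at -0.43 to -0.49 and the KD libraries at 0.27 to 0.39, with FL and control between them.

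With the median of each chromosome removed in each library, 3606 genes were higher and 3726 lower, with 1 higher and 18 lower in glycolysis, 20 and 3 in sterol synthesis and 41 and 0 in ribosome assembly. Chromosome 19 held 7.6% of the lower genes and 3.27% of the tested genes.

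Calls also followed gene length. Of 5 equal groups by exon length, in the shortest (53 to 1992 bases) 15% were higher and 40% lower, with a median of -0.35. In the longest (7141 to 123179 bases) 48.3% were higher and 16.6% lower, with a median of 0.39. The trend was not particular to delta45: for FL against KD the medians were -0.25 in the shortest group and 0.32 in the longest. Across 12490 genes the Spearman rho of length and log2 change was 0.27, given as a description since genes share libraries and are not independent. The trend differed among the KD libraries: relative to the mean of the 12, the shortest group stood at -0.19, -0.11 and -0.14 in delta45 and at 0.00, 0.16 and 0.37 in KD replicates 1, 2 and 3. The share of reads outside genes was 5.48 to 6.13% in delta45 and 2.12 to 3.08% in KD. With the trend removed, 3581 genes were higher and 3791 lower. Whether that share bears on the trend was not tested.

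**Figure D5:**
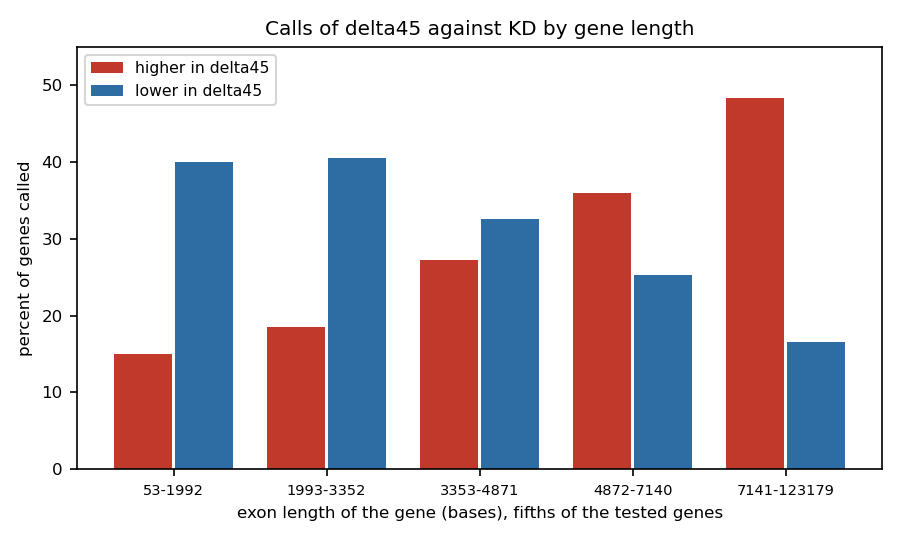
Percent of tested genes called higher (red) or lower (blue) in delta45 than in KD, in 5 equal groups of exon length given in bases. The share higher is 15% in the shortest group and 48.3% in the longest, and the share lower is 40% and 16.6%.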

How the data were processed

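The deposited counts are whole numbers of reads per gene that the authors made for each library. The submitters' processing notes name cutadapt 1.1, TopHat 1.4.1, HTSeq 0.5.3p9, DESeq 1.10.1 and the build mm9. RNA was extracted with RNeasy columns and libraries made with the TruSeq RNA V2 kit, per the labels' protocols. This kit does not mark the strand, so overlapping and antisense genes cannot be told apart. Each of 12 files held 37991 genes, 32919 with a symbol, and 5 closing rows without a gene, which were left out. Reads outside genes, one of these rows, equalled 2.12 to 6.13% in the 6 libraries compared.

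Low genes were removed by edgeR's own filter, library sizes were adjusted by TMM, and 1 mean per group was estimated over 12 libraries (edgeR 4.0.16 quasi-likelihood, R 4.3.3, two-sided, Benjamini-Hochberg adjustment over 12837 genes). The script was tested on simulated counts. Exon lengths, gene order and chromosomes came from GENCODE vM21, another build than the authors', so none of its coordinates are given. Alternatives were other scaling, filters, DESeq2 1.42.0, a 1.5-fold test, a replicate block and leaving out libraries. Intervals and floors cover counting error only.

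Named genes were Ldb1 and the globins, the 15 largest folds each way among called genes at 5 CPM or more without overlap, the 5 largest CPM differences each way, genes without reads in 1 group and up to 4 per list and direction. Some genes named by this rule are not reported here. Predicted genes, pseudogenes and histone cluster genes were left out. Other list members are given for their role and were chosen after their values were seen. The comparison, members and lists were chosen with earlier results of these data known.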

Additional observations from a re-analysis of the deposited data

How the results depend on the processing

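The counts of higher and lower genes stayed within 1.5 times under other scaling, filters, DESeq2 and a fit of the 6 libraries alone, from 3180 to 3896 higher and from 3376 to 4019 lower. The test against a 1.5-fold change gave 1544 higher and 1962 lower, and 3233 and 4596 genes that differed from FL and control. Leaving out any 1 library gave 3338 to 4218 higher and 3263 to 4116 lower. The main fit did not pair libraries by replicate number. Same-numbered delta45 and KD libraries correlated at 0.22, 0.12 and 0.08 in their deviations from the group means. Libraries of unlike number correlated at -0.19 to 0.08. Whether same-numbered libraries shared a batch was not tested. A replicate block gave 3888 higher and 3961 lower. Alternatives chosen after seeing the data were leaving out KD replicates 2 and 3 (3077 higher, 3213 lower), removing the trend over gene length (3581 and 3791) and removing chromosome medians (3606 and 3726). Some small counts within lists moved by over 1.5 times when 1 library was left out, and the filter on low counts was applied anew each time, so the members tested varied slightly. Without delta45 replicate 1 the lower counts were 1 for DNA replication, 2 for RNA polymerases I and III, 3 for ER chaperones and 0 for tRNA synthetases. Without delta45 replicate 3 they were 1 for DNA replication, 1 for mitosis and 3 for the tricarboxylic acid cycle, and without delta45 replicate 2 they were 1, 3 and 3 for mitosis, that cycle and ER chaperones. Without KD replicate 1, 5 stem and progenitor genes were higher.

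Among named genes, 5 called lower changed sign with chromosome medians removed, with log2 changes of 0.46 for Pola2, 0.085 for Tm7sf2, 0.11 for Wars, 0.054 for Syvn1 and 0.0060 for Ahsa1. The other sign changes were of genes that had not passed the test. Without KD replicates 2 and 3 these were Hba-a1 (0.36), Hba-x (0.45), Lmo2 (0.10), Hk1 (0.32), Atf4 (0.26) and Klf1 (0.70). With the length trend removed they were Hba-a1 (0.21), Lmo2 (0.10), Rrm2 (0.058), Atf4 (0.19) and Klf1 (0.28), and with chromosome medians removed Rrm2 (0.29) and Aurka (-0.10). When any 1 library was left out, log2 changes spanned 0 for Hba-a1 (-0.30 to 0.20), Klf1 (-0.35 to 0.15), Mpo (-0.73 to 0.073), Rrm2 (-0.29 to 0.054), Hk1 (-0.24 to 0.041) and Atf4 (-0.22 to 0.030). The causes were not tested. With 3 libraries a group, an exact permutation test of 1 gene cannot go below p = 0.10, so each call borrows its error from other genes.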
